A study of Mus musculus with 154 samples.

Results

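H19, Afp, Zhx2 and Zbtb20 were followed in the livers of 20 control mice, 63 mice with 1 substituted chromosome and 71 mice with 2, as 4 of the 13289 genes of the deposited count table. They were listed by symbol and matched to Ensembl identifiers. The members were chosen by their levels, spread, fitted main effects and interactions in these data, so the adjusted p values of those fits describe the 4 genes. The exact permutation tests and the correlations below use the same mice and levels. None of these p values is independent support for the 4 genes. By the study's account the mice were 5-week-old males fasted overnight, and 1 library, described with the double CSS, had few Y-linked counts. Each mouse was either C57BL/6J (B6) or carried A/J chromosomes on an otherwise B6 genome. The control group held 20 B6 mice. The 8 single chromosome substitution strains (CSS) were heterozygous for 1 A/J chromosome, with 8 mice each except for 7 in (B6 x B6.A5)F1. From the dam came chromosome 3 in (B6.A3 x B6)F1, chromosome 6 in (B6.A6 x B6)F1, chromosome 14 in (B6.A14 x B6)F1 and chromosome 17 in (B6.A17 x B6)F1. From the sire came chromosome 4 in (B6 x B6.A4)F1, chromosome 5 in (B6 x B6.A5)F1, chromosome 10 in (B6 x B6.A10)F1 and chromosome 8 in (B6 x B6.A8)F1. The 15 double CSS, such as (B6.A14 x B6.A8)F1, were heterozygous for 1 chromosome of each parent, with 3 to 6 mice each. A substitution exchanges a whole chromosome, so no value below belongs to a single variant, and recessive A/J alleles were not exposed in these heterozygotes. Strains are abbreviated by the A/J chromosome they carry, so that A8 stands for (B6 x B6.A8)F1 and A14:A8 for (B6.A14 x B6.A8)F1.

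In the fetal liver, alpha-fetoprotein is a major secreted protein and the imprinted noncoding RNA H19 is abundant, and both are silenced in the weeks after birth. ZHX2, a zinc finger and homeobox protein, and ZBTB20, a BTB zinc finger protein, are transcriptional repressors that take part in this silencing, and mouse livers lacking either keep Afp on after weaning. ZHX2 is also known to act on H19, on the proteoglycan gene Gpc3 and on Lpl, which encodes lipoprotein lipase, whereas ZBTB20 is known for acting at the Afp promoter.

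In the GENCODE vM21 annotation of GRCm38, H19 (ENSMUSG00000000031) spans chr7:142575529-142578143 on the minus strand. Afp (ENSMUSG00000054932) lies at chr5:90490737-90508907, beside the albumin gene. Zhx2 (ENSMUSG00000071757) lies at chr15:57694665-57839832 and Zbtb20 (ENSMUSG00000022708) at chr16:42875881-43642602, all 3 on the plus strand. Chromosomes 7, 15 and 16 were B6 in every strain, so for H19, Zhx2 and Zbtb20 every substitution acted in trans. Afp lies on a substituted chromosome, and 1 of its alleles was A/J in the crosses that carried A5.

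The Afp promoter is shown because it is the element through which the postnatal silencing of Afp has been studied. The 250 bases before the RefSeq start, chr5:90490464-90490713 of GRCm38.p6 on the plus strand, are printed with 5 matches in capitals.

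Afp promoter: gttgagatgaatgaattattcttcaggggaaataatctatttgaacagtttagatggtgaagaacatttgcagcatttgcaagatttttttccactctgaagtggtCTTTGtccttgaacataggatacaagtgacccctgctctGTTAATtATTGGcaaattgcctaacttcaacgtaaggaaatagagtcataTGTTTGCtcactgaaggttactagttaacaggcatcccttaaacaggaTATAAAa

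Both strands were searched for the box TATAAA, found near many start sites. They were also searched for the box named CCAAT, and then for GTTAAT, which is part of the HNF1 site. FOXA-like letters were sought as TGTTTAC, and their variant was sought as TGTTTGC. The core letters of the TCF/LEF site were sought as CAAAG. The box TATAAA began 7 bases before the RefSeq start and 30 bases before the GENCODE start, which lies 23 bases further on. TGTTTGC began 55 bases and GTTAAT 105 bases before the RefSeq start. CCAAT was read on the opposite strand, as ATTGG, 98 bases before the RefSeq start, next to GTTAAT, and CAAAG likewise as CTTTG at 144 bases. Of 32851 RefSeq windows of the same length, 12.4% held TATAAA, 33.8% CCAAT, 6.43% GTTAAT, 3.17% TGTTTAC, 4.3% TGTTTGC and 48.6% CAAAG, so GTTAAT and TGTTTGC were the scarcer of the letters found. The window before the RefSeq start of Zbtb20, chr16:43247034-43247283, held none of them. A match is a description of letters and not evidence of a factor at this promoter in these livers.

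H19 is also the host of a microRNA, whose mature arms are shown because they are the processed products of its first exon. They were taken from RefSeq on GRCm38.p6, with the seed, bases 2 to 8, in capitals, at chr7:142577112-142577133 for the 5p arm and chr7:142577078-142577099 for the 3p arm, both inside the H19 gene. The gene counts do not measure them.

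mmu-miR-675-5p: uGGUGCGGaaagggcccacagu

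mmu-miR-675-3p: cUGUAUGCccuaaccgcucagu

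Library totals ran from 4638701 to 30465477 counts, with 6752637 to 25630807 among the B6 mice. Levels are given as CPM, counts scaled to the size of each library after trimmed mean (TMM) normalization. The fetal genes were near the bottom of the table. H19 had a median of 0.686 CPM over all mice, from 0 to 31.6, with 0 to 640 counts. Afp had a median of 1.20 CPM, from 0.109 to 2.97, with 1 to 65 counts, so a single count weighed on most of its values. The repressors were measured far more deeply, Zhx2 at a median of 10.2 CPM from 6.001 to 15.2, and Zbtb20 at 165.02 CPM from 102 to 281. By mean CPM, 12.95% of all genes were below H19, 8.62% below Afp, 46.9% below Zhx2 and 95.3% below Zbtb20. Per kilobase of exon the order of the median levels was Zbtb20 at 5.37, Zhx2 at 2.30, Afp at 0.355 and H19 at 0.279 RPKM. In the B6 mice the median of H19 was 0.684 RPKM and that of Afp 0.365 RPKM. The hepatocyte markers were all present, albumin among them at a mean of 76676 CPM.

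H19 differed between strains and, more than almost any gene of its level, between mice of 1 strain. In B6 the lowest of the 20 mice was at 0, the median at 1.68 and the highest at 31.6 CPM. The 63 single CSS mice had a median of 0.743 CPM, from 0 to 9.22, and the 71 double CSS mice a median of 0.498 CPM, from 0 to 6.55. All these ranges overlapped, and what set B6 apart was its upper end: 3 B6 mice were above 10 CPM and no mouse of another strain was. By mean log2 CPM, A17:A10 stood highest at 1.58, with 1.99, 2.02, 3.47 and 4.83 CPM in its 4 mice. B6 came next at 1.13. The lowest strain was A17:A4, with 0, 0.108, 0.253 and 0.539 CPM. None of the 4 A17:A4 mice reached the B6 median and all 4 A17:A10 mice exceeded it, although both strains carried A17. Between neighbouring strains in this order, 0 of 23 gaps exceeded the larger of the 2 within-strain SDs. Gaps between 24 ordered means are small in any case, so this count cannot show whether strains differ.

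**Figure D1:**
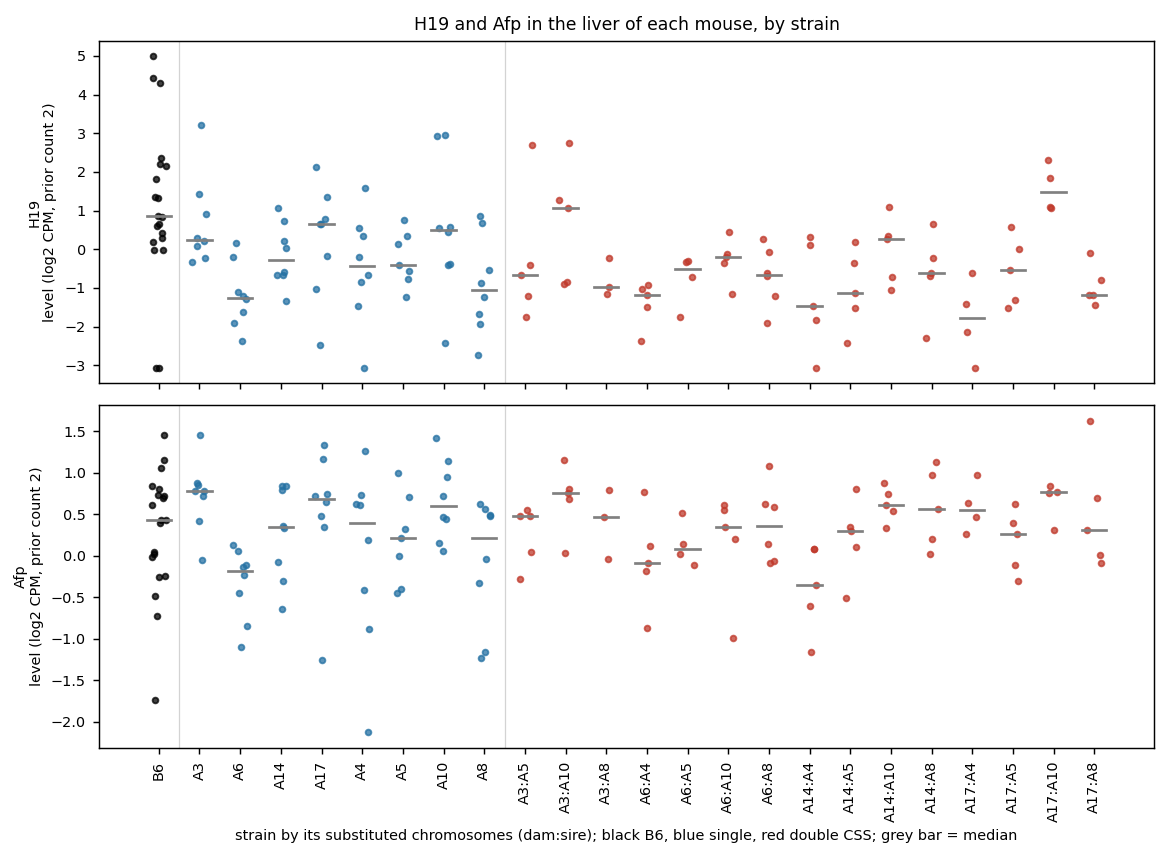
Level of H19 (top) and Afp (bottom) in each mouse, in log2 CPM, by strain, with black points for B6, blue for single CSS, red for double CSS and a grey bar at each strain's median. The 3 highest H19 points all belong to B6, where the points also reach the floor of the scale, while Afp points of B6 lie among those of the other strains.

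The 3 B6 mice above 10 CPM held 73.5% of the H19 counts of that group. B6 replicate 5 had 640 counts and 31.6 CPM, B6 replicate 1 was at 21.5 CPM, and B6 replicate 14 had 358 counts and 19.5 CPM. The next B6 mouse was at 5.01 CPM, and the whole group had a mean of 5.30 ± 8.54 CPM (SD, n = 20). At the other end B6 replicates 12 and 20 had 0 counts, which at their depths allows up to 0.359 and 0.538 CPM, counting error only. Another 3 mice had 0 counts, 1 each in A4, A14:A4 and A17:A4. The SD of H19 within strains was 1.31 on the log2 scale, above that of 99.9% of the 1137 genes within 0.5 of its average level, whose median SD was 0.51. Among the B6 mice alone the SD was 2.06.

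The same 3 B6 mice stood apart at some of the genes whose levels ran most closely with or against H19. Those genes were picked over mice that include these 3, so their separation is partly built in and is only a description. Not all of them separated the 3 mice. The periostin gene Postn was at 39.5, 25.0 and 38.8 CPM in B6 replicates 5, 1 and 14, inside the 20.9 to 46.8 CPM of the other 17. Lpl was at 152, 214 and 125.2 CPM in B6 replicates 5, 1 and 14, above the 44.5 to 99.7 CPM of the other 17. Major urinary proteins are secreted pheromone carriers of adult male liver, and Mup11 was at 21.7, 29.3 and 17.97 CPM in these mice, against 45.2 to 1049.9 CPM in the other 17. Npr2, a natriuretic peptide receptor, was also lowest in the 3 mice, at 6.27, 4.68 and 6.37 CPM against 7.47 to 20.7. Neither repressor separated them. Zhx2 was at 10.5, 10.4 and 11.5 CPM, inside the 7.89 to 15.2 CPM of the other B6 mice, and Zbtb20 at 131.07, 172 and 140 CPM, inside 111 to 204. Afp was at 1.63, 1.95 and 0.871 CPM, inside 0.179 to 2.63. The B6 mouse with the highest Zhx2 and the highest Zbtb20, replicate 12, was 1 of the 2 with no H19 count, and the other, replicate 20, had the second lowest Zhx2 of the group. The part of these genes in the H19 levels was not tested.

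Afp, the albumin relative of fetal plasma, was low in every strain. In B6 its lowest, median and highest values were 0.179, 1.23 and 2.63 CPM, with a mean of 1.25 ± 0.600 CPM (SD, n = 20). Strain means ran from 1.60 ± 0.507 CPM in A3 (SD, n = 8) down to 0.679 ± 0.263 CPM in A14:A4 (SD, n = 5). No mouse of A6 or A14:A4 reached the B6 median. The 8 A6 mice lay between 0.348 and 0.970 CPM, and the 5 A14:A4 mice were at 0.326, 0.537, 0.662, 0.935 and 0.938 CPM. All these values lay within the B6 range. The A14:A4 mice include the library with few Y-linked counts. Again 0 of 23 neighbouring strains were separated by more than their larger SD, as for all 4 genes, which cannot show whether strains differ. The SD within strains, 0.60 on the log2 scale, was above that of 88.9% of 1419 genes of like level.

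The repressors varied little by comparison. Zhx2 was at 7.89, 10.6 and 15.2 CPM in the lowest, median and highest B6 mouse, and strain means ran from 11.6 ± 1.54 CPM in A6:A8 (SD, n = 6) to 8.78 ± 1.41 CPM in A14 (SD, n = 8). No mouse of A14, A17 or A17:A10 was above the B6 median of Zhx2. Zbtb20 was at 111, 144 and 204 CPM in the lowest, median and highest B6 mouse. It was highest in A4, at 222 ± 32.3 CPM (SD, n = 8), from 176.005 to 281 CPM, so that all 8 mice were above the B6 median. It was lowest in A3:A5, at 139 ± 27.7 CPM (SD, n = 5). The SDs within strains were 0.21 on the log2 scale for Zhx2 and 0.24 for Zbtb20, above those of 53.7% and 82% of genes of like level.

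**Figure D2:**
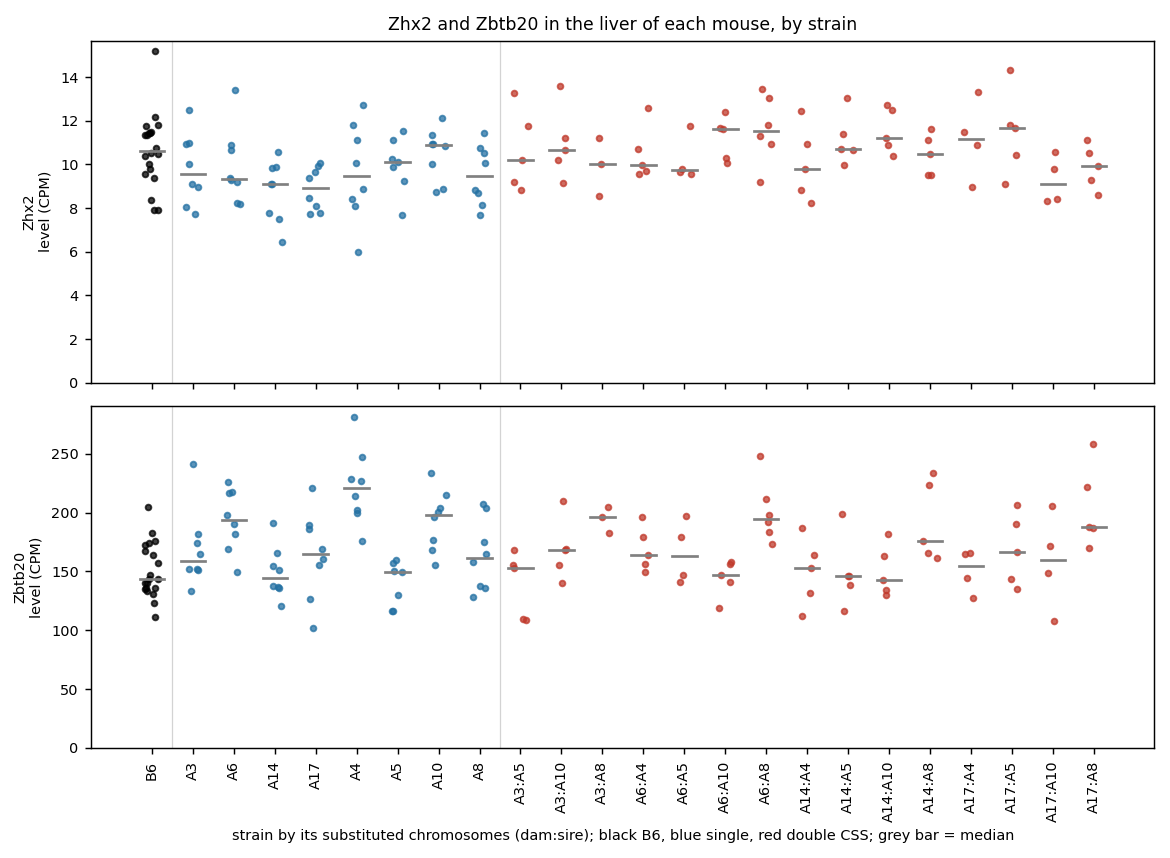
Level of Zhx2 (top) and Zbtb20 (bottom) in CPM in each mouse by strain, on axes that start at 0, with black points for B6, blue for single CSS, red for double CSS and a grey bar at each median. Zhx2 medians lie near the B6 median of 10.6 CPM throughout, and the Zbtb20 median is highest in A4, at 220 CPM against 144 in B6.

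The first question was whether a substitution changed a gene's level on an otherwise B6 genome. Each substituted chromosome was given a main effect and each double CSS an interaction, and 5 surrogate variables stood for unmeasured variation. The test was the quasi-likelihood F test of edgeR, and an effect is called where its p, adjusted by the Benjamini-Hochberg method separately over the genes on and the genes off the substituted chromosomes, lay below 0.05. Of the 32 main effects of the 4 genes, 9 were called, 7 lower and 2 higher, where 11.1% of all main effects of all genes were called, 5.74% lower and 5.32% higher. By strain the called share of all genes was 29.6% for A8, 22.5% for A14, 13.5% for A4, 8.09% for A6, 6.64% for A10, 3.7% for A3, 3.67% for A17 and 0.768% for A5. All main effects are measured against the same 20 B6 mice, so for H19 they share the 3 high B6 mice and are not independent of each other.

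H19 gave the 7 lower calls. The fold change was largest for A8, at a log2 fold change of -3.89 (SE 0.62, adjusted p = 3.22e-07) or 14.8-fold lower. Its 8 mice were at 0.0305 CPM for the lowest, 0.364 for the median and 1.69 for the highest. A14 followed at -3.26 (SE 0.54, adjusted p = 2.11e-06), with mice between 0.277 and 1.96 CPM, and A6 at -3.17 (SE 0.62, adjusted p = 0.000422), with mice between 0.0722 and 0.995 CPM. The other called changes were -2.68 for A5 (SE 0.62, adjusted p = 0.0238), -2.52 for A4 (SE 0.55, adjusted p = 0.000835), -1.93 for A10 (SE 0.49, adjusted p = 0.00913) and -1.62 for A3 (SE 0.47, adjusted p = 0.033). A17 was not called, at -1.52 (SE 0.53, adjusted p = 0.0899). In the raw values every single CSS overlapped B6, and no mouse of A6 or A5 exceeded the B6 median.

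The size of the H19 changes depended on the few high B6 mice and on how the mice were averaged. For A8 the log2 ratio of mean CPM was -3.13, that of median CPM -2.21 and the difference of mean log2 CPM -2.06. For A10 the same 3 figures were -1.05, -0.38 and -0.60 against a fitted -1.93. Without the count model or the surrogate variables, an exact two-sided permutation test of log2 CPM against B6 gave an unadjusted p of 0.00505 for A6 and 0.0142 for A8, and 0.0552 for A4, 0.0986 for A5 and 0.103 for A14. The exact p values for A17, A10 and A3 were 0.277, 0.478 and 0.586. On ranks, A6, A8, A5, A4 and A14 were at 0.000829, 0.0111, 0.0156, 0.0212 and 0.0279. These tests compare the same mice as the fit and are no independent support for its calls.

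Leaving out B6 replicate 1 ended the H19 calls of A3 (-1.25, adjusted p = 0.0972), A5 (-2.13, adjusted p = 0.087) and A10 (-1.18, adjusted p = 0.12) and lowered the 9 calls to 6. Leaving out B6 replicate 5 or 14 ended that of A3 (-1.36 and -1.40). The A3 call also ended without any 1 of replicates 2, 3, 4, 5, 7 and 8 of (B6.A3 x B6)F1, at -1.57 to -1.53, and the A5 call without replicate 1, 3, 5 or 7 of (B6 x B6.A5)F1, at -2.66 to -2.54. Leaving out the double CSS mice numbered 1, 3 or 5 ended the A3 call (-1.599 to -1.485), and those numbered 3 or 5 the A5 call (-2.524 and -2.474). With no surrogate variables the A3 call ended (-1.251, adjusted p = 0.246), as did the A10 call (-1.095, adjusted p = 0.142), and with 10 those of A3 and A5 (adjusted p = 0.0574 for A5). Without replicate 8 of (B6.A17 x B6)F1, which had 4.22 CPM, A17 was called at -1.94 (adjusted p = 0.0414). The calls of A6, A14, A4 and A8 held in each of the 34 refits that left out a B6 mouse, a mouse of the strain or a double CSS replicate number, with changes no smaller than -2.70, -2.72, -1.82 and -3.34.

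Of the 8 main effects on Afp, 0 were called by edgeR's quasi-likelihood test. The lowest estimates were -0.68 for A6 (SE 0.24, adjusted p = 0.0556) and -0.58 for A8 (SE 0.24, adjusted p = 0.0606), both of them called when certain single mice were left out, down to an adjusted p of 0.0425 without B6 replicate 14 for A6 and 0.0161 without replicate 1 of (B6 x B6.A8)F1 for A8. The exact permutation test gave an unadjusted p of 0.0336 for A6. The A5 substitution, the only main effect here in cis, was at -0.21 (SE 0.23, adjusted p = 0.692), with 7 mice from 0.613 to 1.88 CPM, which does not show that the A/J copy of Afp acts like that of B6.

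Zhx2 also had 0 called main effects of 8. Its estimates were small, from -0.21 for A14 (SE 0.09, adjusted p = 0.0783) and -0.18 for A17 (SE 0.09, adjusted p = 0.244) to 0.01 for A10. Those of A14 and A17 had the lowest unadjusted exact permutation p values of the 8, 0.00691 and 0.00807. A14 was called without replicate 3, 4 or 6 of (B6.A14 x B6)F1 or without B6 replicate 10, at -0.26 to -0.23.

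Zbtb20 had 2 called main effects of 8, both higher, while 3 of its estimates were lower than B6. It rose in A4 by a log2 fold change of 0.40 (SE 0.08, adjusted p = 0.000372) or 1.32-fold, and in A6 by 0.28 (SE 0.08, adjusted p = 0.0199) or 1.21-fold. The 8 A6 mice were between 150 and 226 CPM, overlapping the 111 to 204 CPM of B6. The exact permutation test gave unadjusted p values of 3.86e-06 for A4, 0.000429 for A6 and 0.000348 for A10, where the fit gave 0.25 (SE 0.09, adjusted p = 0.0572). The A6 call ended with 10 surrogate variables (0.1731, adjusted p = 0.191) and without replicate 1 or 3 of (B6.A6 x B6)F1, at 0.22 and 0.23, and A10 was called without replicate 2 or 3 of (B6 x B6.A10)F1 or B6 replicate 16 or 18, at 0.26 to 0.29. Set side by side, A4 and A6 had lower H19 and higher Zbtb20 than B6, A8 and A14 had lower H19 with Zbtb20 at -0.02 and -0.05, and these estimates share their controls.

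**Figure D3:**
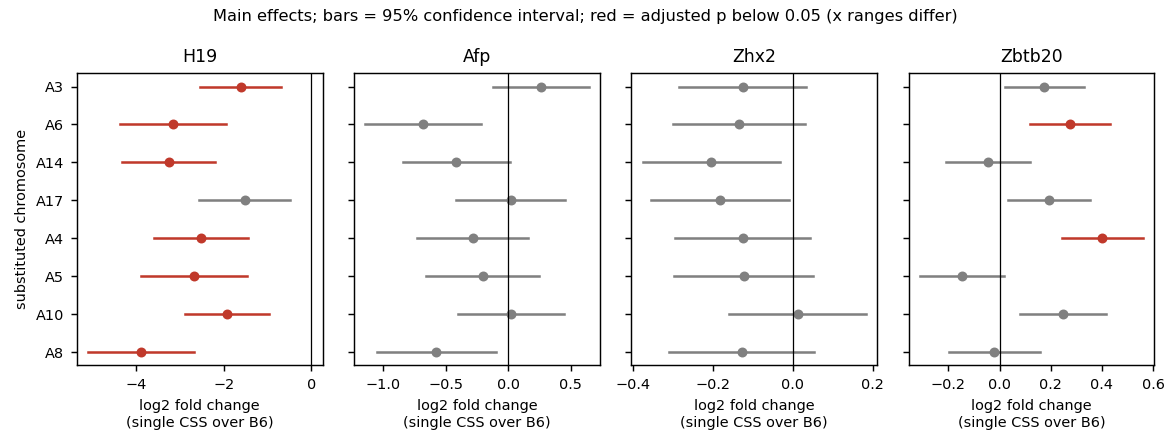
Fitted main effect of each substituted chromosome on H19, Afp, Zhx2 and Zbtb20, as log2 fold change of the single CSS over B6 with bars of the 95% confidence interval, red where the adjusted p was below 0.05; the horizontal ranges differ between panels. H19 points lie between -3.89 and -1.52 with 7 in red, and the only other red points are Zbtb20 in A6 and A4.

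Interactions ask whether a double CSS departs from the sum of its 2 main effects on the log2 scale. Of 60 interactions of the 4 genes, 6 were called by edgeR's quasi-likelihood test, where 5.96% of all interactions of all genes were, 2.61% lower and 3.35% higher, so the count of these genes was not far from the background. The crosses differed widely in that background, at 24.8% of genes for A6:A8 and 32.4% for A14:A8, against 4.16% for A14:A10, 0.542% for A6:A4 and 1.21% for A17:A4. An interaction estimate contains both main effects with reversed sign, so it shares the B6 mice and the single CSS mice with them.

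For H19 the 3 called interactions were A6:A8 at 3.92 (SE 1.12, adjusted p = 0.00558), A14:A8 at 3.76 (SE 1.12, adjusted p = 0.00531) and A14:A10 at 3.18 (SE 0.96, adjusted p = 0.0377). In A6:A8 the sum of the main effects was -7.05, and the fitted double CSS was -3.14 below B6, close to the -3.17 and -3.89 of its single substitutions. Its 6 mice were at 0.148, 0.313, 0.498, 0.533, 0.834 and 1.08 CPM, over the range of both parental single CSS. In A14:A8 the sum was -7.15 and the double CSS was at -3.38, with 0.0836, 0.497, 0.536, 0.739 and 1.45 CPM in its mice. From the B6 mean of 5.30 CPM, both of these sums lie below the floor of 3 counts, which was 0.111 to 0.538 CPM over the B6 libraries. Additivity of H19 could therefore hardly be observed in A6:A8 or A14:A8. In A14:A10 the sum was -5.19 and the double CSS was at -2.01, with 0.361, 0.493, 1.09, 1.16 and 2.03 CPM. From the same B6 mean, the A14:A10 sum lies within the range of those floors, so additivity was hard to observe there too. All 3 double CSS had mice within the B6 range of 0 to 31.6 CPM and none above 2.03 CPM. With no surrogate variables the A14:A8 call was lost, at 2.661 (adjusted p = 0.0573), and so was the A14:A10 call, at 1.338 (adjusted p = 0.373). The A14:A10 call was also lost with 10 surrogate variables and by DESeq2. It was the least stable, lost in 14 of 47 refits that left out mice: B6 replicate 1 (2.37, adjusted p = 0.119), 5 or 14, replicates 3 or 7 of (B6 x B6.A10)F1, 4 or 6 of (B6.A14 x B6)F1, 2, 3 or 5 of the double CSS, and double CSS replicate numbers 1, 2, 3 or 5.

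Afp had 1 called interaction, A6:A8 at 1.20 (SE 0.38, adjusted p = 0.0128). Afp was at 0.82, 0.841, 0.986, 1.38, 1.42 and 1.99 CPM in the 6 double CSS mice, with a mean of 1.24 ± 0.451 CPM (SD, n = 6). The mean was 0.703 ± 0.222 CPM in A6 (SD, n = 8) and 0.936 ± 0.460 CPM in A8 (SD, n = 8). The double CSS was at -0.06 against B6 where the sum was -1.26, so its Afp level was near that of the controls. This call was lost with 10 surrogate variables (0.4647, adjusted p = 0.613) and without the mice numbered 5 in the double CSS (1.003, adjusted p = 0.0535). The same sign of interaction in A14:A8, 0.93 (SE 0.38), fell just outside the threshold at an adjusted p of 0.0503 and was called in 15 refits that each left out 1 mouse, the lowest adjusted p being 0.0177 without replicate 1 of (B6 x B6.A8)F1.

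Zbtb20 had 2 called interactions, both lower and both with A4. In A6:A4 the interaction was -0.64 (SE 0.14, adjusted p = 0.007), and the 5 mice were at 149, 156, 164, 179 and 196 CPM, against means of 194 ± 26.3 CPM in A6 (SD, n = 8) and 222 ± 32.3 CPM in A4 (SD, n = 8). In A17:A4 it was -0.58 (SE 0.15, adjusted p = 0.0267), with 127, 144, 165.006 and 166 CPM. Against B6 both double CSS were near 0, at 0.04 and 0.02, so in the fit the higher Zbtb20 of A4 was not seen when A6 or A17 was added. This was not particular to them: A14:A4, with an uncalled interaction of -0.35 (SE 0.14), was at 0.006 against B6. In the raw values all 5 A6:A4 mice were above the B6 median of Zbtb20, as were 3 of the 4 A17:A4 mice and 3 of the 5 A14:A4 mice. With 10 surrogate variables both calls were lost, at -0.4473 for A6:A4 (adjusted p = 0.474) and -0.4911 for A17:A4 (adjusted p = 0.138). The A17:A4 call was also lost without replicate 4 of (B6.A17 x B6)F1 or replicate 4 of (B6.A17 x B6.A4)F1, at -0.49 and -0.50. A14:A8 was at 0.31 (adjusted p = 0.0829) and was called without replicate 8 of (B6 x B6.A8)F1 or replicate 1 or 4 of (B6.A14 x B6)F1.

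Zhx2 had 0 called interactions of 15 by edgeR. The nearest was A6:A8 at 0.33 (SE 0.14, adjusted p = 0.0659), where the double CSS had the highest strain mean of Zhx2, and it was called in 7 refits that each left out 1 mouse, the lowest adjusted p being 0.024 without replicate 4 of (B6.A6 x B6)F1. A14:A8, at 0.32 (adjusted p = 0.0871), was called without replicate 3 of (B6.A14 x B6)F1 or replicate 4 of the double CSS. In A6:A8 all 3 of H19, Afp and Zhx2 thus had positive estimates, with H19 and Afp called and Zhx2 not. Positive signs were not particular to this cross. Of the 15 interaction estimates of each gene, 14 were positive for H19, 12 for Afp and 14 for Zhx2.

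**Figure D4:**
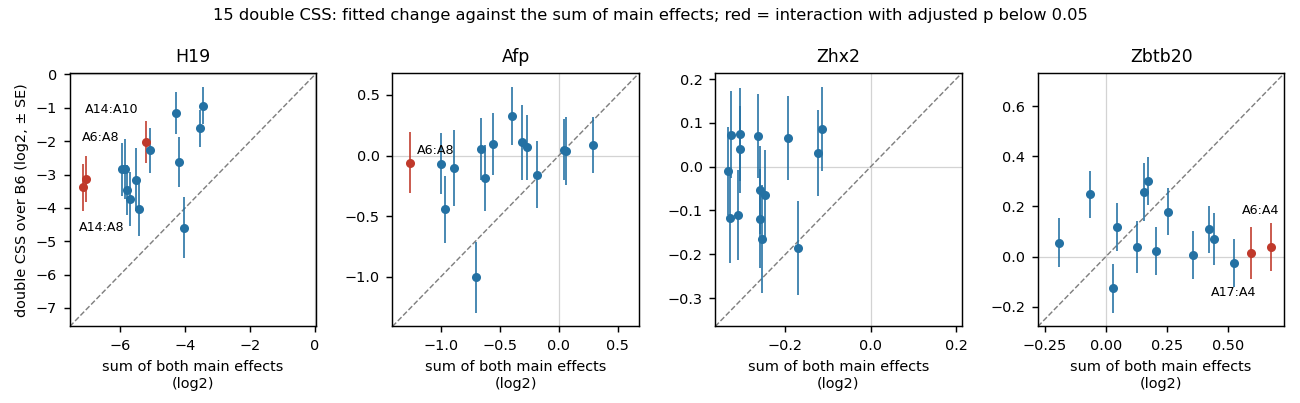
For each of the 15 double CSS, the fitted log2 change over B6 (vertical axis, bars of 1 SE) against the sum of its 2 main effects (horizontal axis), with a dashed line where both are equal and called interactions in red and named. For H19 the sums reach -7.15 while no double CSS is below -4.59, and the red Zbtb20 points have sums of 0.68 and 0.59 and lie at 0.04 and 0.02 on the vertical axis.

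Measured directly against B6, 8 of the 60 double CSS values of the 4 genes were called, where 3.98% of all such values were, 1.83% lower and 2.15% higher. H19 was lower in 6 of them, at -4.59 in A17:A4, -4.03 in A17:A8, -3.72 in A6:A4, -3.46 in A14:A4, -3.38 in A14:A8 and -3.14 in A6:A8, with adjusted p values by edgeR from 0.000499 to 0.00494. The smallest H19 change was -0.93. Afp fell in A14:A4 by 1.003 on the log2 scale (SE 0.29, adjusted p = 0.0125), the strain in which all 5 mice lay below the B6 median. Zbtb20 rose in A17:A8 by 0.30 (SE 0.10, adjusted p = 0.0451), with 170 to 258 CPM. Zhx2 was called in 0 of 15, at -0.19 to 0.09. In replicate 3 of A14:A4 the summed level of 4 Y-linked genes was 2.94 CPM, against 257 to 315 CPM in the B6 mice, although the study used males, and without this mouse 7 double CSS values were called. That mouse is among the 5 behind the Afp change in A14:A4.

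In the joint test of all 23 strain coefficients by edgeR, adjusted over all genes together, H19, Zbtb20 and Afp were called, at adjusted p values of 8.26e-12, 2.64e-05 and 0.0239, and Zhx2 was not, at 0.189. Of all genes 51.4% were called in this test. The Afp call was lost without the A14:A4 mouse with few Y-linked counts, at 0.118. In the joint test of the 15 interactions, Zbtb20 and H19 were called at 7.71e-05 and 0.00624 and Afp and Zhx2 were not, at 0.157 and 0.154, where 27.4% of all genes were called. The H19 call in this test was lost with no surrogate variables, at 0.118, and without the double CSS mice numbered 2, at 0.09893. The share of the sum of squares of log2 CPM that lay between strains was 43.3% for Zbtb20, 33.4% for H19, 25.0% for Zhx2 and 23.1% for Afp, a share that 24 small groups raise by themselves.

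Relations between the genes were examined in the deviations of all mice from their strain means, over 6 pairs with permutation within strains. H19 and Afp were positively related, with Pearson's r = 0.31 (permutation p = 0.00112, adjusted 0.00672) and Spearman's rho = 0.23 (permutation p = 0.00688, adjusted 0.0413). Without the 2 mice farthest from the median of H19 r was 0.23. Over the 20 B6 mice r was 0.52 (adjusted permutation p = 0.059), and without them it was 0.23 (adjusted permutation p = 0.116). No relation between a target and a repressor was called. For H19, r was -0.05 with Zhx2 (adjusted permutation p = 0.937) and -0.14 with Zbtb20 (adjusted permutation p = 0.225), with rho of -0.06 and -0.12. For Afp, r was -0.00 with Zhx2 and -0.01 with Zbtb20 (adjusted permutation p = 0.981 for both), with rho of -0.10 and -0.03. Zhx2 and Zbtb20 were related to each other, with r = 0.25 (adjusted permutation p = 0.0125) and rho = 0.21 (adjusted 0.0482), and r = 0.19 without the 2 farthest mice.

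Over the 24 strain means, H19 and Afp had r = 0.54 (adjusted permutation p = 0.0337), rho = 0.59 (adjusted 0.018) and r = 0.56 without the 2 farthest strains, while the other 5 pairs had r between -0.21 and 0.12. The permutation treats the means as exchangeable, although strains share substituted chromosomes and hold unequal numbers of mice. These values over strain means are therefore only a description. Total counts had r with the 4 genes from -0.01 to 0.11. The median level of the 1247 genes longer than 10000 bases was related to Zbtb20, whose exons cover 30730 bases, with r = 0.63 (rho = 0.61, adjusted permutation p = 8e-05 for both), and less so to Zhx2, with r = 0.29 (rho = 0.24, adjusted permutation p = 0.00232 and 0.023). For H19 and Afp it was -0.05 and 0.03. The part of long genes in the link between the repressors, or in the strain differences of Zbtb20, was not tested.

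**Figure D5:**
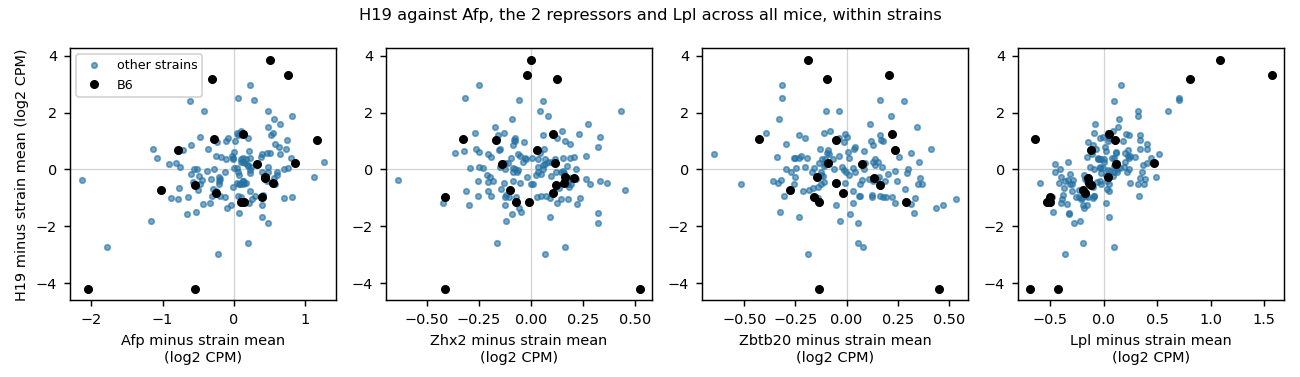
Deviation of H19 from its strain mean (vertical axis, log2 CPM) against that of Afp, Zhx2, Zbtb20 and Lpl (horizontal axes, log2 CPM) in all mice, black for B6 and blue for the other strains. The cloud rises with Afp (r = 0.31) and with Lpl (r = 0.64), while r was -0.05 with Zhx2 and -0.14 with Zbtb20.

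For 12528 genes whose average level reached a log2 CPM of 0 or more, likeness was measured by r over the deviations of all mice. Those whose deviations were most like H19 were Slc25a4, an ADP/ATP carrier of heart and muscle (r = 0.66), Lpl (r = 0.64), the fatty acid binding protein gene Fabp4 (r = 0.56), the metalloreductase gene Steap2 (r = 0.56) and Postn, which encodes the matrix protein periostin (r = 0.55). The most opposed were Mup11 (r = -0.68), Mup16 (r = -0.65) and Npr2 (r = -0.65). Over the B6 mice alone r was 0.79 for Lpl and -0.90 for Mup11, and without them 0.54 and -0.58. These are the largest of many correlations and are given as a description. Afp, by comparison, was at position 226 in the H19 order, Zhx2 at 7758 and Zbtb20 at 10297.

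Other genes led for Afp, which was nearest to the cohesin gene Stag1 (r = 0.56), Inca1 (r = 0.55), Pum3 (r = 0.54), Hmgn2 (r = 0.54) and Hnrnpa1 (r = 0.53), and most opposed to Pogk (r = -0.58), Csad (r = -0.58) and C1galt1 (r = -0.55). Zhx2 was nearest to the nonmuscle myosin gene Myh9 (r = 0.53), Nectin1, Anpep, Faah and Smarcc2 (r from 0.51 to 0.52), and most opposed to Tomm5, Tfam and Wtap (r = -0.48 each). Zbtb20 was nearest to Wnk1 (r = 0.71), Lpp (r = 0.69), Kmt2c (r = 0.67), Tnrc6b (r = 0.67) and Cep350 (r = 0.67), all long genes, and most opposed to Oaz1 (r = -0.57), Chmp1a (r = -0.54) and Ncaph2 (r = -0.54). The 50 genes nearest to Zbtb20 had a median exon length of 15000.5 bases, against 4343.5 over all 12528.

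The other known ZHX2 targets were compared with H19 and Afp. Lpl, abundant in fetal liver and low in adult hepatocytes, had 6 called main effects, all lower, at -0.90 for A4, -0.84 for A14, -0.60 for A6, -0.60 for A10, -0.58 for A17 and -0.43 for A8. It had 5 called interactions of 15, all higher, with 1.27 in A14:A8 and 0.93 in A6:A8 among them. Of all interactions of all genes 5.96% were called, with 32.4% in A14:A8 and 24.8% in A6:A8. Gpc3 was called lower in A14 alone, at -0.99 (adjusted p = 0.0135), and higher in the A14:A8 interaction, at 1.39 (adjusted p = 0.0232). Within strains Lpl had r = 0.64 with H19 (rho = 0.60, adjusted permutation p = 8e-05 for both, from the smallest p that 100000 permutations can give) and r = 0.32 with Afp (rho = 0.34, adjusted permutation p = 0.00096 and 0.00016), against r = 0.04 with Zhx2 and 0.04 with Zbtb20. Gpc3 had r = 0.24 with Zhx2 (rho = 0.23, adjusted permutation p = 0.0138 and 0.0227). Counting H19 and Afp, the 4 targets had 14 lower and 0 higher calls in 32 main effects, where 5.74% and 5.32% of all main effects were. H19 gave 7 of the lower calls and Lpl 6. H19 was chosen by these effects, Lpl is among the genes most like it, and all share the same B6 mice. The count is therefore a description and no independent support for a pattern of ZHX2 targets.

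Of 27 listed genes of fetal and neonatal liver, 20 were in the table and 13 of these were called in the joint strain test, against 51.4% of all genes. Over their 160 main effects 29 were lower and 4 higher, where 5.74% and 5.32% of all main effects were. H19, chosen by these effects, gave 7 of the lower ones and Lpl 6, all against the same B6 mice. Those called in the joint test were H19, Afp, Lpl, the RNA-binding protein gene Igf2bp3, the trefoil factor gene Tff3, the fetal cytochrome gene Cyp3a16, the amino acid transporter gene Slc38a4 and the imprinted genes Mest, Peg3, Plagl1, Meg3, Grb10 and Igf2r. Igf2bp3, at a mean of 12.5 CPM, had 2 lower main effects and deviated with both targets (r = 0.45 with H19 and 0.42 with Afp). Cyp3a16 had 2 higher main effects and deviated against Afp (r = -0.35), so the list did not move as a block. Igf2, the partner of H19 in its imprinted domain, and Dlk1, Igf2bp1, Lin28b, Hmga2, Bex1 and Ndn were not analysed here.

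All 4 genes of the albumin family on chromosome 5, Afp among them, were called in the joint strain test, where 51.4% of all genes were, with Alb and Afm lower in 2 main effects each and Gc lower in 1 and higher in 1. In the ZHX family Zhx1 was higher in 3 main effects and Zhx3 lower in 3, while Zhx2 had none. Of 18 other regulators of Afp or H19 in the table, 9 were called in the joint strain test, a share near the 51.4% of all genes, namely Foxa2, Foxa3, Hnf4a, Cebpb, Nr5a2, Trp53, Nfia, Nfib and Trim28, and over 144 main effects 19 were lower and 5 higher, where 5.74% and 5.32% of all main effects were. All 5 higher ones belonged to the nuclear factor gene Nfib, whose level also deviated with Zbtb20 (r = 0.66), and 5 of the 19 lower ones to Hnf4a, the hepatocyte nuclear factor. Zfp57 was not analysed here. Of 4 genes tied to ZBTB20, Egfr was lower in 2 main effects and Afp, Fgf21 and Cyp2e1 in none.

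In bulk liver, fewer cells of a type and less RNA per cell cannot be told apart. Summed over a list, the deviations of H19 had r = 0.32 with 6 hepatocyte markers, 0.28 with 5 proliferation genes, 0.25 with 5 endothelial genes (0.49 for Lyve1 among them), 0.17 with 5 erythroid genes, 0.14 with 6 stellate cell genes, 0.10 with 5 Kupffer cell genes, -0.05 with 4 cholangiocyte or progenitor genes and -0.32 with 8 pericentral genes. Of 7 adipocyte genes 3 were in the table, and their sum had r = -0.35 with H19, with Car3 at r = -0.38 and Fabp4 at 0.56. Of 5 skeletal muscle genes only Myh4 was in the table, at 0 to 1.45 CPM in B6 and up to 87.7 CPM elsewhere (r = 0.32). The 1 of 4 pancreas genes in the table had r = -0.22. For Afp, r was 0.29 with the hepatocyte markers and 0.24 with the pericentral genes, and between -0.13 and 0.16 with the proliferation, erythroid, endothelial, stellate cell, Kupffer cell and cholangiocyte lists. Such sums follow their most abundant gene, Alb for hepatocytes and Cyp2e1 for the pericentral list. Gene by gene, r with H19 ran from -0.07 (Ttr) to 0.32 (Alb) over the hepatocyte markers and from -0.48 (Cyp1a2) to -0.14 (Rhbg) over the pericentral genes. With Afp it ran from -0.20 (Ttr) to 0.41 (Cps1) and from -0.16 (Axin2) to 0.28 (Oat). For Zbtb20, r was -0.32 with Kupffer cell genes and -0.20 with the stellate cell genes. The part of cell content in any of the differences above was not tested.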

How the data were processed

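Liver RNA of 20 B6, 63 single CSS and 71 double CSS mice was sequenced by the authors from stranded total RNA libraries. Per the labels and the study's methods, reads were aligned to mm10 with TopHat2, those left over to an A/J version of the genome, and counted per gene with HTSeq; the strand setting is not given in the sources used here. The deposited table holds raw gene counts, 4638701 to 30465477 per mouse, for 13289 genes that the authors kept by a filter of 15 counts in 75% of samples; that filter is not met by H19 and Afp in the table itself, where 95 and 60 mice have fewer than 15 counts. GENCODE vM21 named 13242 identifiers, and 47 were unmatched. Groups follow the strain labels; replicate numbers only name mice. Mice came from several breeding cages per cross, by the study's account, so p values cover the spread between mice.

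All genes were fitted together in edgeR 4.0.16 (quasi-likelihood test, legacy mode, TMM scaling) on 8 main effects plus 15 interactions, adding 5 surrogate variables (sva 3.50.0), B6 being the reference, with Benjamini-Hochberg adjustment within each effect, for genes on and off the substituted chromosomes separately, at 0.05. Log2 CPM used a prior count of 2. Exact permutation tests and 100000 permutations within strains were two-sided. The fit was tested on simulated data. The 4 members and all gene lists were chosen with earlier results of these data known, and the adipocyte list was added after seeing the data. Genes named as companions are the 5 with the highest and 3 with the lowest r with a member. Alternatives were 0 and 10 surrogate variables, DESeq2 1.42.0, other size factors, and leaving out mice. Refits without 1 mouse kept the surrogate variables and dispersions of the full fit; those without a double CSS replicate number estimated them again. Floors (3 counts) cover counting error only, while the 95% intervals of fitted effects come from the fit and include the spread between mice.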

Additional observations from a re-analysis of the deposited data

Results flagged for a closer look

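Values that stood apart from the rest of their strain by Dixon's test were found in 4 of 88 combinations of gene and strain, where chance flags about 1 in 20. B6, with 20 mice, and A3:A8, with 3, were outside the sizes tested. The high H19 values of B6 were therefore not examined by this test. Afp was lowest in replicate 6 of (B6.A17 x B6)F1, at 0.299 CPM from 5 counts, against 1.15 to 2.40 CPM in the other 7 mice. Afp was at 0.383 CPM from 4 counts in replicate 1 of (B6.A6 x B6.A10)F1, against 1.03 to 1.41 CPM, and at 1.12 CPM in replicate 2 of (B6.A17 x B6.A10)F1, against 1.57 to 1.67 CPM. Zhx2 was highest in replicate 3 of (B6.A6 x B6.A5)F1, at 11.8 CPM against 9.57 to 9.79 CPM.

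Of the 60 interactions of the 4 genes, 6 were called in 5 crosses by the interaction term of edgeR's quasi-likelihood test. Over all genes 5.96% of interactions were called, with 24.8% in A6:A8 and 32.4% in A14:A8. The count was therefore not far from the background. In a called cross the fitted effect of a substitution differed with the presence of the other one. The interactions were 3.92 for H19 in A6:A8, 3.76 for H19 in A14:A8, 3.18 for H19 in A14:A10, 1.20 for Afp in A6:A8, -0.64 for Zbtb20 in A6:A4 and -0.58 for Zbtb20 in A17:A4, all on the log2 scale. For H19 in A6:A8 and A14:A8 the sum of the main effects lay below the floor of 3 counts, so additivity could hardly be observed there. For A14:A10 the sum lay within the range of that floor over the B6 libraries.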

How the results depend on the processing

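Over the alternatives, the main effects called numbered 6 to 13 against 9. The interactions called were 6, and 2 with 10 surrogate variables; leaving out mice gave 5 to 10, the 10 without the double CSS mice numbered 4. The double CSS values called were 8, and 13 with no surrogate variables. The adjusted p of the Afp joint strain test was 0.168 with 10 surrogate variables and 0.118 without replicate 3 of (B6.A14 x B6.A4)F1, and 0.002925 to 0.09216 when mice were left out, above 0.05 without the double CSS mice numbered 1, 3, 5 or 6. With no surrogate variables the joint strain test of Zhx2 was called at 0.0297, its joint interaction test at 0.0405, and the joint interaction test of H19 was not called, at 0.118; leaving out mice gave 0.002989 to 0.09893 for the last, which was above 0.05 without the double CSS mice numbered 2. The cause of these differences was not tested.

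With the surrogate variables removed from log2 CPM, r was 0.20 for H19 and Afp, 0.0681 for H19 and Zhx2, 0.00303 for H19 and Zbtb20, 0.17 for Afp and Zhx2, 0.0577 for Afp and Zbtb20 and 0.17 for Zhx2 and Zbtb20, none of them called. Afp and Zhx2 had r = 0.0162 with a prior count of 0.5 and 0.17 in B6 alone, and Afp and Zbtb20 0.0313 in B6 alone. H19 and Afp had r = 0.52 in B6 alone and 0.23 without B6, and Zhx2 and Zbtb20 0.19 without B6, none called at those sizes. No other sign changed among these results.

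A filter of 15 counts in 75% of mice removes H19 and Afp and kept 11852 genes, so it gives no value for them. Double CSS contrasts were refitted without B6 mice and without replicate 3 of (B6.A14 x B6.A4)F1, but not without the other double CSS mice. No paired analysis was possible because replicate numbers follow accession order and pair no mice. Depth limits H19 and Afp: 95 and 60 mice had fewer than 15 counts.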
